A study of Mus musculus with 16 samples.

Results

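The first step of priming was the comparison of day 2 with day 0 in mouse embryonic stem cells, covered by 4 of the 16 libraries of the series, 2 for each day. These libraries were chosen by their labels alone. All 4 came from the E14tg2a embryonic stem cell line carrying the N1580A knock-in of Dnmt1 on one allele, so the mutant enzyme and the wild-type copy were present on both days. Day 2 cells had been passaged and grown for 2 days in medium with serum and leukaemia inhibitory factor (LIF) but without kinase inhibitors. Day 0 cells were the naive state, grown in serum and LIF with 3 µM CHIR99021, an inhibitor of GSK3, and 1 µM PD0325901, an inhibitor of MEK. All cells received 1 mM Ado-6-azide, an azide-bearing analogue of the methyl donor, by electroporation, and genomic DNA was taken 3 h later. Azide-tagged DNA from 900 ng was primed and sequenced by TOP-seq, which reads out single CpG positions. Each library is a list of CpG positions with their reads, so the measurements below are where the tag was found on DNA and carry no RNA level. The labels do not say whether the replicates were separate cultures or whether the heterozygous line was 1 clone. The p-values therefore measure only the spread between libraries, which may be technical. Those of edgeR rest on the spread within days over 8 libraries, with days 4 and 8 included. In its main fits of positions per gene and per 100 kb window the common coefficient of variation beyond counting error was 0.00988. The same value came back under most other settings, so it may be a lower limit of the estimate and not a measured spread. After thinning to equal numbers of positions it was 0.0192 for genes and 0.0198 for windows. The edgeR p-values for positions thus reflect mostly counting error. Because the data are tagged DNA, no marker level can check the labelled cell type. Given below as background are 2 control libraries that belong to neither day. They are labelled wild-type Dnmt1 and recorded with the same azide dose and time, values that do not settle their medium.

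Dnmt1 is the maintenance DNA methyltransferase, which copies methylation onto the new strand after replication, and it is recruited to hemimethylated CpGs with the help of Uhrf1. Naive mouse embryonic stem cells held with inhibitors of MEK and GSK3 have a sparsely methylated genome, and methylation rises again after the inhibitors are withdrawn, with Dnmt3a and Dnmt3b as the de novo enzymes. CpG-dense promoters stay largely free of methylation in most cell types, whereas gene bodies and the sequence between genes carry it.

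The readout can be seen in 4 upstream regions. Each is the 250 bases before a gene start in RefSeq GRCm38.p6, printed 5′ to 3′ on the strand of the gene, with the CpGs listed in either day 2 library in capitals. The 4 were chosen after their values were seen, to show a germline gene, a naive pluripotency gene, a lncRNA that fell and a CpG-dense promoter.
Tex101: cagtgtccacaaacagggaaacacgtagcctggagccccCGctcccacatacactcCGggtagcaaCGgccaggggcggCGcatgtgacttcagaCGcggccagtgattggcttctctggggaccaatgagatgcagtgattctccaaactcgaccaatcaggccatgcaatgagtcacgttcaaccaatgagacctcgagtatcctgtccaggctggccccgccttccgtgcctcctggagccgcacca
Esrrb: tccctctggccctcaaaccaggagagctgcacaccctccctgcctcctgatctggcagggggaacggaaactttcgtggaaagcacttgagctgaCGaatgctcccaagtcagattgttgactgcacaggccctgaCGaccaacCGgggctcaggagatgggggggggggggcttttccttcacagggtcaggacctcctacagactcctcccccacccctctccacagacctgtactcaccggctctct
Gm13391: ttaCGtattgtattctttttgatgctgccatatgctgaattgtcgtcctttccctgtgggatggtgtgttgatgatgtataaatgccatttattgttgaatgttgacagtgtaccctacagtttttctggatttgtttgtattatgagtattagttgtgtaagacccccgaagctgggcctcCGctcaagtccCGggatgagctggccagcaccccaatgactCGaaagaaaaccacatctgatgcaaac
Dnmt3b: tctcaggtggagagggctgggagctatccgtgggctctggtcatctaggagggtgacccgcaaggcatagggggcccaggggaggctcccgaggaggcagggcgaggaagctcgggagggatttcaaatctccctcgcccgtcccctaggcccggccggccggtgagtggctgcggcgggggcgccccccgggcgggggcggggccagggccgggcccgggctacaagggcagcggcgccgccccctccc

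The Tex101 region, at chr7:24672051-24672300 on the minus strand, belongs to a gene for a germ cell surface protein and holds 14 CpGs. Of these, 4 and 2 were listed in the day 2 libraries, against 1 and 0 in the day 0 libraries. The Esrrb region, at chr12:86360867-86361116 on the plus strand, lies before a transcription factor gene of the naive state and holds 6 CpGs. The day 2 libraries listed 0 and 3 of them, against 1 and 0 in the day 0 libraries. The Gm13391 region, at chr2:6475357-6475606 on the plus strand, also holds 6 CpGs, with 1 and 3 listed on day 2, against 0 and 3 on day 0. The Dnmt3b region, at chr2:153649199-153649448 on the plus strand, is far denser, with 21 CpGs, and none of them was listed in any of the 4 libraries. Neither wild-type control library listed a CpG in any of the 4 regions.

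Over 31396 promoter windows of 300 bases, listed CpGs were scarce where CpGs were dense. The windows belong to 25748 genes, some with more than 1 window, and lie on 18 of the 19 autosomes. Windows with 20 or more CpGs held 224396 CpGs, of which 186 and 163 were listed on day 2, against 257 and 110 on day 0. As normalised counts, that is listed CpGs per 1000000 autosomal positions of the library, this was 149 and 127 on day 2, against 671 and 275 on day 0. On day 2 both libraries were lower, and the day 0 libraries differed from each other by more than the day 2 libraries did. The day 2 share was 0.292 of the day 0 share. It was 0.502 without day 0 replicate 1 and 0.206 without day 0 replicate 2. The wild-type control libraries, which listed only 9027 and 3436 positions in all, had normalised counts of 14180 and 9022 in these windows. The part of such background in the day 0 listings was not tested. In windows with 5 to 9 CpGs the order was the other way, with normalised counts of 1668 and 1645 on day 2, against 1474 and 1325 on day 0, a ratio of 1.18. Windows with 10 to 19 CpGs overlapped between the days, at 629 and 634 on day 2, against 775 and 573 on day 0. With 2 libraries a day, an exact permutation test cannot give a p below 0.3333, and all these differences between days that did not overlap stood at that value.

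**Figure D1:**
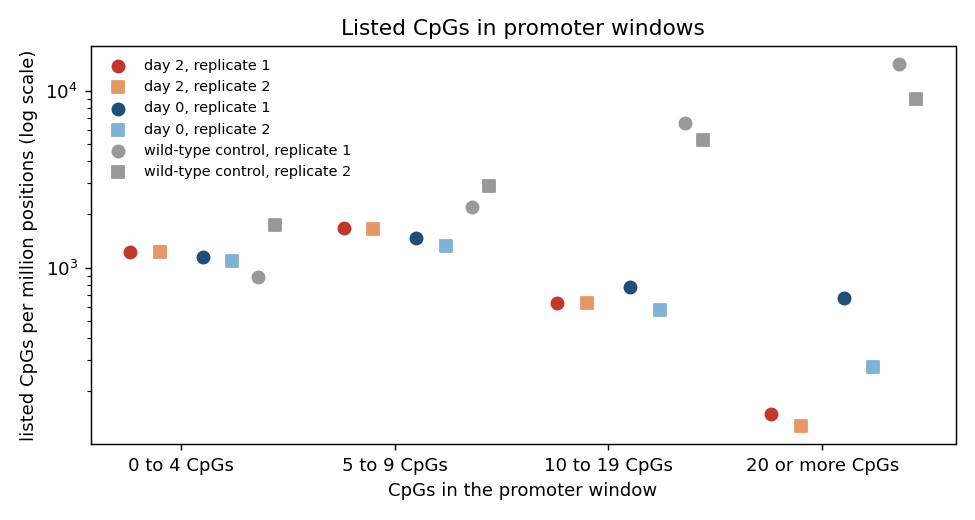
Normalised counts of listed CpGs, per 1000000 positions of the library (log axis), in promoter windows of 300 bases, by the number of CpGs in the window; each point is 1 library of day 2, day 0 or the wild-type control. In windows with 20 or more CpGs the day 2 libraries sit at 149 and 127, below the day 0 libraries at 671 and 275, and the control libraries lie far above both.

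More positions were listed on day 2. The day 2 libraries listed 1245488 and 1286026 autosomal positions, against 383292 and 399896 on day 0. Both day 2 libraries exceeded both day 0 libraries, by 3.23-fold (two-sided exact permutation test, p = 0.3333, the smallest that 2 against 2 can give). Reads differed less, with 9889357 and 8787079 on day 2, against 4134592 and 4796615 on day 0, a ratio of 2.09. Each listed position thus carried 7.94 and 6.83 reads on day 2, against 10.8 and 11.99 on day 0. At an equal number of reads per library the ratio of positions was 2.81. Tagging of more sites, better recovery of tagged DNA and deeper sequencing cannot be told apart from these totals. Because day 2 was deeper, its shares carry less counting error than those of day 0, and most calls below turn on the day 0 libraries.

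The positions also spread differently along the genome. When the libraries were thinned to 383292 positions each, the 2 day 2 libraries had 3.06% of positions in common, against 4.98% for the 2 day 0 libraries. Pairs of a day 2 and a day 0 library had 3.34% to 3.46% in common. In the same thinned sets, 2.72% and 2.64% of day 2 positions lay under 50 bp from the next, against 7.02% and 7.48% of day 0 positions. Whether positions so close are separate counts was not tested. At these equal numbers, 208 and 221 of 23923 windows of 100 kb held no position on day 2, against 348 and 344 on day 0. Both day 2 libraries thus left fewer windows empty. Over 100 kb windows the Spearman correlation of all positions was 0.955 between the day 2 libraries and 0.882 between the day 0 libraries, an order that turned when the libraries were thinned. For thinned positions it was 0.864 between the day 2 libraries and 0.879 between the day 0 libraries, and 0.833 to 0.839 across the days, as a description over windows of the same genome.

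Shares of the large sequence classes moved little. Protein-coding gene bodies held 51.0% and 51.3% of day 2 positions, against 50.4% and 50.4% of day 0 positions, while they cover 40.0% of autosomal bases. Sequence outside genes held 41.5% and 41.2% on day 2, against 42.1% and 42.1% on day 0. The libraries of the 2 days did not overlap in either class (exact permutation p = 0.3333). Gene bodies over 1 Mb held 1.93% and 1.90% on day 2, against 1.70% and 1.76% on day 0, and gene bodies under 10 kb held 1.84% and 1.86% on day 2, against 1.72% and 1.62% on day 0. Both the longest and the shortest bodies were thus higher on day 2, but not they alone. Bodies of 10 to 30 kb held 6.90% and 6.97% on day 2, against 6.67% and 6.48% on day 0. Bodies of 30 to 100 kb held 15.20% and 15.37% on day 2, against 15.18% and 15.04% on day 0, with overlap in reads. Bodies of 100 to 300 kb were lower, at 15.76% and 15.88% on day 2, against 15.91% and 16.11% on day 0. Those of 300 kb to 1 Mb overlapped. Among autosomes, chromosome 11 held 6.18% and 6.21% on day 2, against 5.85% and 5.76% on day 0, and chromosome 13 held 4.80% and 4.76% on day 2, against 5.05% and 5.09% on day 0. These were the largest differences each way. In shares of positions the libraries of the days did not overlap on any autosome except chromosome 8.

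Among gene bodies, many long and sparsely tagged genes took a larger share of positions on day 2, among them Foxp2, Nrxn3 and Dlg2, and some long and densely tagged genes, such as Wwox and Foxp1, took a smaller one. Of 20016 gene bodies tested for distinct positions, 99 rose and 139 fell on day 2 relative to all autosomal positions (edgeR quasi-likelihood test over the 8 day libraries, Benjamini-Hochberg adjusted p under 0.05). These are 1.19% of tested genes, 0.495% for rises and 0.694% for falls, and the libraries of the days did not overlap in 44.3% of tested genes. A rise or a fall is a change in the share of listed positions, on a scale where the totals differ 3.23-fold. In plain numbers, all 99 genes that rose had more positions on day 2, and so did 125 of the 139 that fell, with 9 fewer and 5 the same. The median ratio of day 2 to day 0 positions was 1.74 over the genes that fell and 6.50 over the 86 that rose and had a day 0 position. All 238 genes had the same direction in reads, as did 15918 of the 19778 that were not called. Reads are counted at the same listed positions, so this is no separate evidence. The number of calls depended on single libraries: it was 52 without day 0 replicate 1, 32 without day 0 replicate 2, 127 without day 2 replicate 1 and 91 without day 2 replicate 2.

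The genes that rose were long, with a median of 136 kb, against 74.5 kb for those that fell and 25.5 kb for the rest. Called genes also held more positions, with medians of 191, 115 and 36 over both day 2 libraries and 27, 72 and 11 on day 0. Genes with more positions pass the test at smaller changes, and this part of the lengths was not tested. Among protein-coding genes the median log2 change was 0.09 up to 30 kb and -0.02 at 100 to 300 kb. It was 0.03 at 300 kb to 1 Mb and 0.24 over 1 Mb. The median gene that rose had a normalised count of 60.6 positions per 100 kb of length on day 2, against 13.5 on day 0. The heterozygous triplicate, 3 libraries of the same line and genotype that are in neither group and whose medium the labels do not settle, had 60.3 there. For genes that fell the medians were 70.4 on day 2 and 119 on day 0, with 70.1 in the triplicate. In both sets the day 2 level was thus the one near the triplicate. Day 2 and day 0 values chose both sets, so this is a description.

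Foxp2, a forkhead transcription factor of developing neurons at chr6:14901349-15441977, was among the 8 largest rises of genes with at least median abundance and at least 10 day 0 positions. It had 136 and 118 positions on day 2, against 11 and 16 on day 0. Both day 2 libraries were far above both day 0 libraries, also in normalised counts (109 and 91.8 on day 2, against 28.7 and 40.0 on day 0). The log2 change of its share was 1.51 ± 0.25 (SE, edgeR adjusted p = 5.35e-06), and it was called in all 8 fits that left out 1 library. Kcnd2 and Kcnh7 encode voltage-gated potassium channel subunits, and Grm5 a metabotropic glutamate receptor. Kcnd2 had 145 and 131 positions on day 2, against 11 and 21 on day 0, a log2 change of 1.38 ± 0.24. Kcnh7 had 102 and 100 on day 2, against 11 and 13 on day 0, a log2 change of 1.35 ± 0.27. Grm5 had 107 and 84 on day 2, against 7 and 15 on day 0, a log2 change of 1.39 ± 0.28. In each of these 3 genes the day 2 libraries stood well apart from the day 0 libraries, although all 3 lost the call without day 0 replicate 1 (adjusted p of 0.0755, 0.0755 and 0.236), and Kcnh7 also without day 0 replicate 2 (0.0608).

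The other large rises were shorter genes with few day 0 positions. Ezr, which encodes ezrin, a linker of the cell membrane to actin, had 60 and 69 positions on day 2, against 8 and 6 on day 0 (log2 change 1.48 ± 0.35). Agps, an enzyme of ether lipid synthesis, had 47 and 56 on day 2, against 4 and 7 on day 0 (1.498 ± 0.39). Nudt3, a Nudix hydrolase, had 43 and 58 on day 2, against 4 and 8 on day 0 (1.34 ± 0.38), and the lncRNA Gm26510 had 46 and 49 on day 2, against 7 and 3 on day 0 (1.52 ± 0.41). All 4 had higher shares in both day 2 libraries. They were called with adjusted p of 0.00769, 0.0223, 0.0486 and 0.0300 by edgeR, and none was called without day 0 replicate 1, without day 0 replicate 2 or without day 2 replicate 2. Gm26510 also lost its call without day 2 replicate 1, and Nudt3 without day 4 replicate 2.

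In 13 genes that rose no position was listed on day 0. A count of 0 there allows up to 3 positions over the day 0 group, so folds against it are lower bounds and cover counting error only. The lncRNA Trp53cor1, a p53-induced transcript beside Cdkn1a on chromosome 17, had 19 and 21 positions on day 2, at least 4.13-fold higher as a share. Neat1, the lncRNA that builds paraspeckles, had 14 and 20, at least 3.51-fold higher, and Gm14273 had 16 and 18, also at least 3.51-fold higher. Tspan17, a tetraspanin, had 19 and 13 (at least 3.30-fold higher), and Aqp3, a water and glycerol channel, had 14 and 13 (at least 2.78-fold higher). Prdm14, a regulator of the naive state, had 13 and 14, also at least 2.78-fold higher. All 6 genes also had listed positions in every day 4 and day 8 library, with normalised counts of 10.6 and 9.78 on day 8 for Prdm14 and 18.6 and 23.1 for Neat1. With 0 positions on day 0, they could pass the filter on low counts only through the later days. The later listings are thus a description and no separate evidence of a rise. All 6 lost the call when either day 0 library was left out (adjusted p of 0.110 to 0.292). Tspan17 and Aqp3 also lost it without day 2 replicate 1, and Neat1, Prdm14 and Aqp3 without day 2 replicate 2.

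The 8 largest falls among genes of at least median abundance had about the same number of positions on both days. Gm11100, on chromosome 14, had 26 and 21 on day 2, against 25 and 22 on day 0, or normalised counts of 20.9 and 16.3 on day 2, against 65.2 and 55.0 on day 0. Both day 2 shares were below both day 0 shares, with a log2 change of -1.72 ± 0.30 (edgeR adjusted p = 2.18e-05), called in all 8 fits that left out 1 library. Nlrp4e, of a family of NOD-like receptors known from oocytes, had 30 and 29 on day 2, against 24 and 27 on day 0, a log2 change of -1.51 ± 0.28 that lost the call without day 0 replicate 2 (adjusted p of 0.0999). Dctn4, a dynactin subunit, had 19 and 16 on day 2, against 15 and 15 on day 0 (log2 change -1.50 ± 0.36). Gm13391, whose upstream region is shown above, had 16 and 18 on day 2, against 16 and 13 on day 0 (-1.49 ± 0.36). Neither Dctn4 nor Gm13391 was called when either day 0 library or day 2 replicate 2 was left out, and Gm13391 was not called without day 2 replicate 1 either. The other 4 were Gm34833, A630034I12Rik, Gm16158 and Gm6098, with log2 changes between -1.72 and -1.53 and 14 to 26 positions in each day 2 library, against 13 to 24 in each day 0 library. Without day 0 replicate 2 none of these 4 was called, and without day 0 replicate 1 only A630034I12Rik was. Gm16158 also lost its call without either day 2 library, and Gm6098 without day 2 replicate 2.

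**Figure D2:**
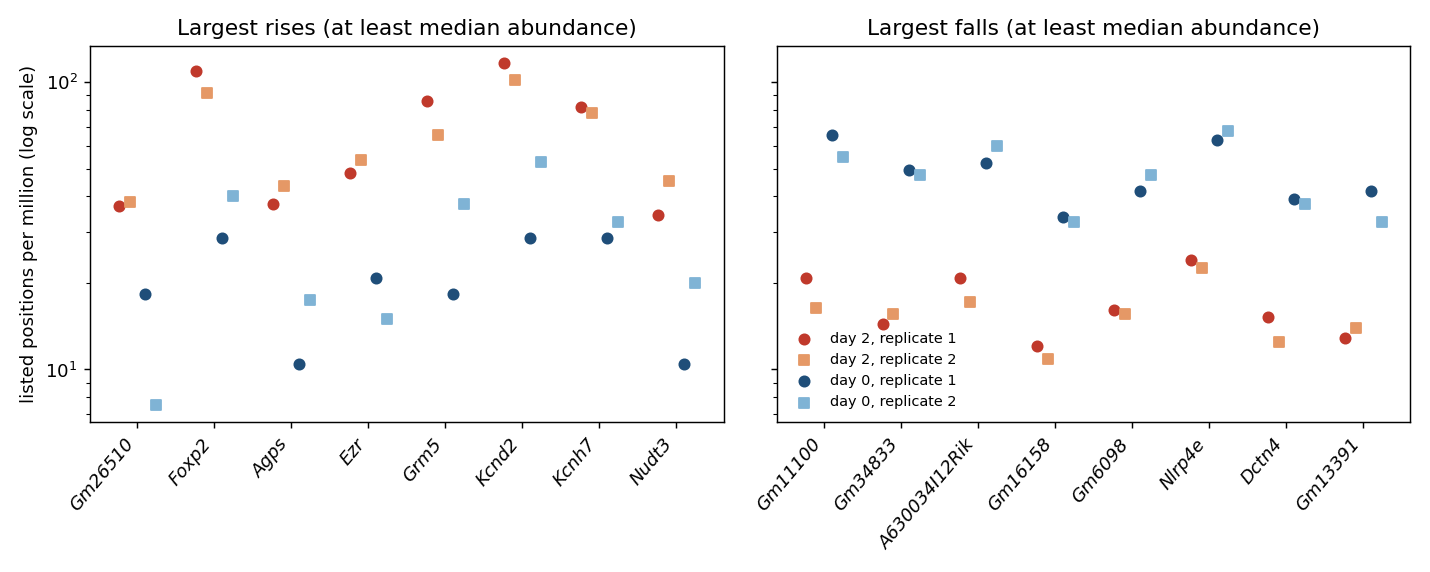
Normalised counts, listed positions per 1000000 (log axis), for the 8 largest rises and the 8 largest falls among genes of at least median abundance; each point is 1 library of day 2 or day 0. In every gene shown both day 2 points lie on one side of both day 0 points, as the choice of these genes required.

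Long genes were followed further because they split by how densely they were tagged. The 531 protein-coding genes over 300 kb were ranked by positions per 100 kb in the heterozygous triplicate and cut into 3 groups of 177, a split made after the data were seen. In the low-density group, with 4.98 to 71.4 positions per 100 kb, 28 rose and 0 fell, with a median log2 change of 0.36. In the middle group 7 rose and 5 fell, with a median of 0.05. The high-density group, with 123 to 307 positions per 100 kb, had 0 rises and 15 falls and a median of -0.11, beside 0.495% that rose, 0.694% that fell and a median of 0.03 over all tested genes. Summed over the low-density group, the normalised counts were 23160 and 22773 on day 2, against 17689 and 18337 on day 0. Over the high-density group they were 56738 and 56593 on day 2, against 60194 and 60358 on day 0. The libraries of the days did not overlap in either sum, and reads had the same order. Fewer genes of the low- and high-density groups were called when a day 0 or day 2 library was left out, and fewest without a day 0 library. This was not so when a day 8 library was left out. Without 1 day 0 or day 2 library the median log2 change was 0.37 to 0.42 in the low-density group. In the high-density group it was -0.07 to -0.04. The middle group had 1 rise without either day 0 library. The low-density group had 15 rises with DESeq2. The high-density group had 1 rise and 9 falls when no filter on low counts was applied.

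**Figure D3:**
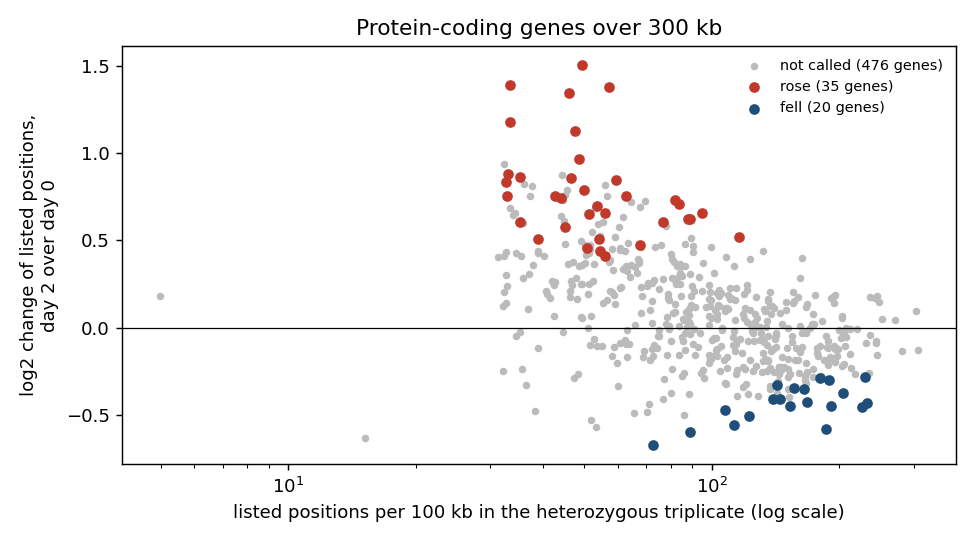
Log2 change of listed positions, day 2 over day 0, against positions per 100 kb in the heterozygous triplicate (log axis) for the 531 protein-coding genes over 300 kb; each point is 1 gene, coloured by its call. The 35 genes that rose sit mostly at low density and the 20 that fell at higher density.

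Among long genes at high density, named here after their values were seen, Wwox, a tumour suppressor gene at a common fragile site, had 1114 and 1197 positions on day 2, against 449 and 509 on day 0 (log2 change -0.45 ± 0.06). Foxp1, a forkhead factor related to Foxp2, had 558 and 562 on day 2, against 244 and 264 on day 0 (-0.58 ± 0.08). Both genes had more positions on day 2 but a smaller share of the total. Rarb, a retinoic acid receptor, had 248 and 230 on day 2, against 121 and 110 on day 0 (-0.68 ± 0.12). In Wwox both day 2 libraries were below both day 0 libraries in 7 of 8 whole 100 kb windows, and in Foxp1 in 5 of 5. The falls of Tenm3 and Tenm4, described below, were less even, with both day 2 libraries below in 6 of 12 and 3 of 7 windows and above in 2 and 0. Over all tested windows the libraries did not overlap, in either direction, in 48.6%. In Foxp2 and in Kcnd2 both day 2 libraries were above both day 0 libraries in 4 of 4 windows.

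The list of long cell adhesion and synaptic genes, most of them neuronal, held 10 genes that rose and 3 that fell among 39 tested, beside 1.19% called over all genes. Calls were also more frequent among long genes of any kind. Of 55 protein-coding genes over 1 Mb tested, 15 rose and 2 fell, and of 476 of 300 kb to 1 Mb, 20 rose and 18 fell. The calls are thus not particular to this list. Their median log2 change was 0.35, against 0.03 over all tested genes, and 31 of 39 were positive. The list was drawn up with earlier results of these data known and is no independent evidence of direction. Nrxn3, a presynaptic neurexin of chromosome 12, had 485 and 480 positions on day 2, against 70 and 92 on day 0. Its normalised counts were higher in both day 2 libraries (389 and 373 on day 2, against 183 and 230 on day 0), with a log2 change of 0.85 ± 0.12 (edgeR adjusted p = 1.92e-09). Dlg2, a postsynaptic scaffold, had 435 and 456 on day 2, against 74 and 82 on day 0 (0.79 ± 0.12, adjusted p = 1.71e-07). Lsamp, an IgLON adhesion protein, had 553 and 542 on day 2, against 92 and 119 on day 0 (0.65 ± 0.11, adjusted p = 1.92e-06). These 3 were called in all 8 fits that left out 1 library. Along their length, both day 2 libraries were above both day 0 libraries in 13 of 15 windows of Nrxn3, 13 of 19 of Dlg2 and 11 of 21 of Lsamp, where 1 window went the other way. Over all tested windows the libraries did not overlap, in either direction, in 48.6%, a share that Lsamp is near.

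The other members of the list that rose, described here after their values were seen, were Csmd3, Dpp10, Lrp1b, Ctnna2, Cntnap2, Pcdh15 and Csmd1, with log2 changes between 0.41 and 1.18. Csmd3, a very large transmembrane protein, had 174 and 171 positions on day 2, against 22 and 24 on day 0 (1.18 ± 0.20). Ctnna2, the neuronal alpha-catenin, had 296 and 298 on day 2, against 65 and 49 on day 0 (0.66 ± 0.14). All 7 were higher in both day 2 libraries. The 3 that fell were the teneurins Tenm3 and Tenm4, cell surface proteins that guide neuronal connections, and the cadherin Cdh13. Tenm3 had normalised counts of 768 and 775 on day 2, against 944 and 955 on day 0 (-0.33 ± 0.07), and Tenm4 had 482 and 440 on day 2, against 584 and 610 on day 0 (-0.41 ± 0.08). Cdh13 had 1157 and 1077 positions on day 2, against 410 and 416 on day 0 (-0.29 ± 0.06). All 3 lie at high density in the triplicate, at 142, 145 and 181 positions per 100 kb, against 49.9 for Dlg2 and 59.5 for Nrxn3. The list gave 6 rises and 0 falls without day 0 replicate 1, and 5 and 0 without day 0 replicate 2. It gave 9 and 2 without day 2 replicate 1, and 10 and 0 without day 2 replicate 2.

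**Figure D4:**
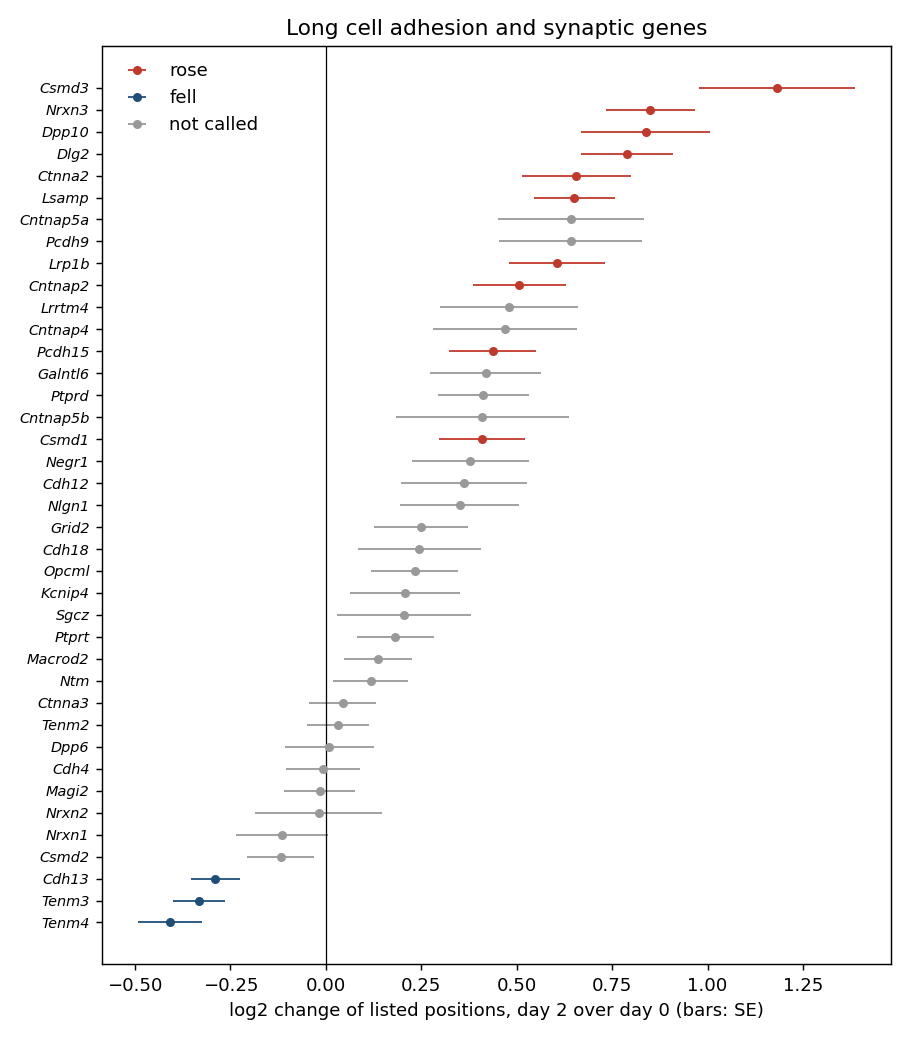
Log2 change of listed positions, day 2 over day 0, for the tested long cell adhesion and synaptic genes; points are genes and bars their standard errors from the edgeR fit. Nrxn3, Dlg2 and Lsamp sit at 0.85, 0.79 and 0.65, and Tenm3, Tenm4 and Cdh13 at -0.33, -0.41 and -0.29.

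Genes of the methylation machinery showed no called change: of 25 tested, 0 rose and 0 fell, and their median log2 change was -0.08. With 1.19% called over all tested genes and a median of 0.03, a count of 0 among so few does not set these genes apart. Dnmt1 itself had 83 and 80 positions on day 2, against 23 and 25 on day 0, a log2 change of 0.04 ± 0.23 (edgeR adjusted p = 0.975). Its normalised counts, 66.6 and 62.2 on day 2, against 60.0 and 62.5 on day 0, lay close together, and a change of the size seen in Foxp2 is well outside this error. Uhrf1, the partner of Dnmt1, had 24 and 23 positions on day 2, against 4 and 3 on day 0 (1.02 ± 0.52, adjusted p = 0.402). The de novo enzymes Dnmt3a and Dnmt3b had log2 changes of -0.32 ± 0.20 and -0.08 ± 0.33, and their cofactor Dnmt3l of -0.84 ± 0.52. The methylcytosine oxidases Tet1 and Tet2 had -0.15 ± 0.27 and -0.35 ± 0.31. With the few positions listed in Uhrf1, a change of the size measured there did not pass the test.

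The naive pluripotency genes were mostly too short or too sparsely listed to test, with 11 of 23 tested, of which Prdm14 rose and 0 fell. Their median log2 change was 0.45, and 9 of 11 were positive, beside 1.19% called and a median of 0.03 over all tested genes. Esrrb, an orphan nuclear receptor, had 165 and 152 positions on day 2, against 35 and 36 on day 0. Its share was higher in both day 2 libraries but was not called (0.43 ± 0.18, edgeR adjusted p = 0.258). Tfcp2l1, a transcription factor of the same state that was picked after its values were seen, had 30 and 46 on day 2, against 3 and 7 on day 0 (1.20 ± 0.42, adjusted p = 0.160). Nanog had 2 and 4 positions on day 2, against 0 and 0 on day 0, and Pou5f1 had 0 in all 4 libraries, so neither was tested. Of 12 formative and primed genes tested, 0 rose and Lef1 fell. Fgf5 had 19 and 9 positions on day 2, against 7 and 4 on day 0 (-0.37 ± 0.51), and Otx2, with 2 and 2 on day 2, against 0 and 2 on day 0, was not tested.

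PD0325901 acts on the FGF and MAPK pathway and CHIR99021 on the GSK3 and Wnt pathway, so both lists were counted. Of 30 FGF and MAPK genes tested 1 rose and 0 fell, and their median log2 change was 0.26, beside 0.495% that rose, 0.694% that fell and a median of 0.03 over all tested genes. The gene that rose was Spred2, an inhibitor of Ras to Raf signalling, with 119 and 120 positions on day 2, against 17 and 15 on day 0. The day 2 libraries were far higher, with a log2 change of 1.17 ± 0.24 (edgeR adjusted p = 0.000744) that lost the call without day 0 replicate 2 (0.146). Map2k1, which encodes the MEK1 kinase, had 44 and 39 positions on day 2, against 12 and 10 on day 0 (0.19 ± 0.33), and the FGF target Etv5 had 38 and 37 on day 2, against 5 and 7 on day 0 (0.92 ± 0.41, adjusted p = 0.306). Of 35 GSK3 and Wnt genes 0 rose and Lef1, a partner of beta-catenin, fell. Lef1 had 114 and 134 positions on day 2, against 51 and 62 on day 0 (-0.59 ± 0.17, adjusted p = 0.0423), and it was called in 0 of 8 fits that left out 1 library, with adjusted p of 0.0530 to 0.515. Gsk3b had 82 and 80 on day 2, against 21 and 23 on day 0 (0.16 ± 0.24). Of 13 LIF and JAK-STAT genes 0 rose and 0 fell, with a median of 0.38.

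Among 41 imprinted genes tested 0 rose and 2 fell, with a median log2 change of -0.01, beside 0.495% that rose, 0.694% that fell and a median of 0.03 over all tested genes. Igf2r, the maternally expressed receptor that clears IGF2, had 79 and 99 positions on day 2, against 48 and 45 on day 0 (-0.79 ± 0.19, edgeR adjusted p = 0.00860). It was not called without day 0 replicate 1, day 0 replicate 2 or day 2 replicate 1 (adjusted p of 0.293, 0.174 and 0.165). The imprinted lncRNA Peg13 had 13 and 9 positions on day 2, against 16 and 6 on day 0. Its 2 day 0 libraries were far apart, and the fall (-1.72 ± 0.44) lost its call without day 0 replicate 1 (0.712) and without day 2 replicate 2 (0.204). Of 25 germline genes with methylated promoters, 0 rose and 0 fell. Tex101, whose upstream region is shown above, had 6 and 10 positions in its body on day 2, against 8 and 5 on day 0.

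Zinc finger genes were taken by their numbered Zfp symbols alone. Many such genes encode KRAB proteins, which silence retroelements, but the symbol does not show the KRAB domain. Of 290 tested 8 fell and 1 rose, with a median log2 change of -0.04, beside 0.694% that fell, 0.495% that rose and a median of 0.03 over all tested genes. Zfp936 had 46 and 44 positions on day 2, against 33 and 39 on day 0, a log2 change of -1.40 ± 0.23 (edgeR adjusted p = 5.35e-06) that was called in all 8 fits that left out 1 library. Zfp982 had 98 and 98 on day 2, against 48 and 76 on day 0 (-1.06 ± 0.17), and its day 0 libraries were apart, with the call lost without day 0 replicate 2 (0.292). Zfp850 had 5 and 11 on day 2, against 10 and 10 on day 0 (-2.03 ± 0.48), and was not called when either day 0 library or day 2 replicate 1 was left out. The other falls were Zfp37, Zfp407, Zfp608, Zfp951 and Zfp978, of which Zfp407 and Zfp608 are not known as KRAB proteins. The rise was Zfp46, with 0 positions on day 0. Genes of such clusters are near-identical copies in part, so reads may be placed in the wrong member.

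Markers of other cell types were counted as gene bodies, beside 0.495% that rose and 0.694% that fell over all tested genes. Among 15 endoderm genes Lama1, a basement membrane laminin, fell, with 149 and 136 positions on day 2, against 69 and 70 on day 0 (-0.69 ± 0.15, edgeR adjusted p = 0.00277), and it was not called without either day 0 library or without day 2 replicate 2. Among 13 neural ectoderm genes the 2 that rose were Nrxn3 and Dlg2, described above. Both are over 1 Mb long, a length at which 15 of 55 tested protein-coding genes rose. The mesoderm and endothelial, trophoblast and fibroblast or feeder lists, with 13, 10 and 13 tested, had 0 rises and 0 falls. The same held for Hox and Polycomb target genes (24 tested), vomeronasal receptor genes (29), olfactory receptor genes (14) and clustered protocadherins (35). With so few genes tested, counts of 0 do not set these lists apart from all tested genes.

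Windows of 100 kb, which need no annotation, were compared next. Of 23665 windows tested, 164 rose and 507 fell, together 2.84% (0.693% and 2.14%). Of the 507 that fell, 502 still had more positions on day 2. The count was 197 without day 0 replicate 1, 147 without day 0 replicate 2, 426 without day 2 replicate 1 and 346 without day 2 replicate 2. By the rule for named windows, which asks for at least median abundance and at least 10 day 0 positions, the largest rise was chr17:29000001-29100000, which holds Trp53cor1 and Cdkn1a, the p21 cell cycle inhibitor. It had 60 and 70 positions on day 2, against 6 and 4 on day 0. The 2 days stood apart, with a log2 change of 1.95 ± 0.38 (edgeR adjusted p = 0.000285) that lost the call without day 0 replicate 2 (0.0814). As normalised counts the window held 48.2 and 54.4 on day 2, against 15.7 and 10.003 on day 0. The window just before it held 86.7 and 73.1 on day 2, against 88.7 and 75.02 on day 0. The window just after it held 80.3 and 87.9 on day 2, against 57.4 and 45.01 on day 0. Both days were thus lower in this window than in either neighbour, and day 0 the more so. In most windows within 1000 kb both day 2 libraries were above both day 0 libraries. Overlap was seen only at -900, -100 and 600 kb from this window. Higher day 2 shares were thus not confined to it. A window within Dst, a cytoskeletal linker gene (chr1:34000001-34100000), had 79 and 78 on day 2, against 7 and 6 on day 0 (1.84 ± 0.34), called in all 8 fits that left out 1 library. A window of Macf1, which encodes a related linker, had 52 and 45 on day 2, against 5 and 5 on day 0 (1.52 ± 0.40), and lost its call when either day 0 library or day 2 replicate 1 was left out.

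The 5 largest falls among windows of at least median abundance were each called in all 8 fits that left out 1 library. The window chr14:19400001-19500000, which holds Gm41101, had 54 and 60 positions on day 2, against 51 and 63 on day 0, so the numbers were alike while the normalised counts were 43.4 and 46.7 on day 2, against 133 and 158 on day 0. Its log2 change was -1.75 ± 0.19 (edgeR adjusted p = 3.50e-15). The union of the triplicate held only 111 positions there. The window at chr2:98600001-98700000, without an annotated gene, had 75 and 71 positions on day 2, against 63 and 68 on day 0 (-1.59 ± 0.17), and a read count far above its neighbours, with 8009 and 6995 reads on day 2, against 6525 and 7880 on day 0. The first window of chromosome 9 that holds positions, chr9:3000001-3100000, had 100 and 88 on day 2, against 84 and 81 on day 0 (-1.56 ± 0.16). In these 3 windows the number of listed positions was close to even between the days. The windows with Abcg3 and Aldh1l2 had 63 and 67 on day 2, against 52 and 63 on day 0 (-1.57 ± 0.19), and 154 and 133 on day 2, against 95 and 123 on day 0 (-1.35 ± 0.14). The part of collapsed repeats in these windows was not tested.

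**Figure D5:**
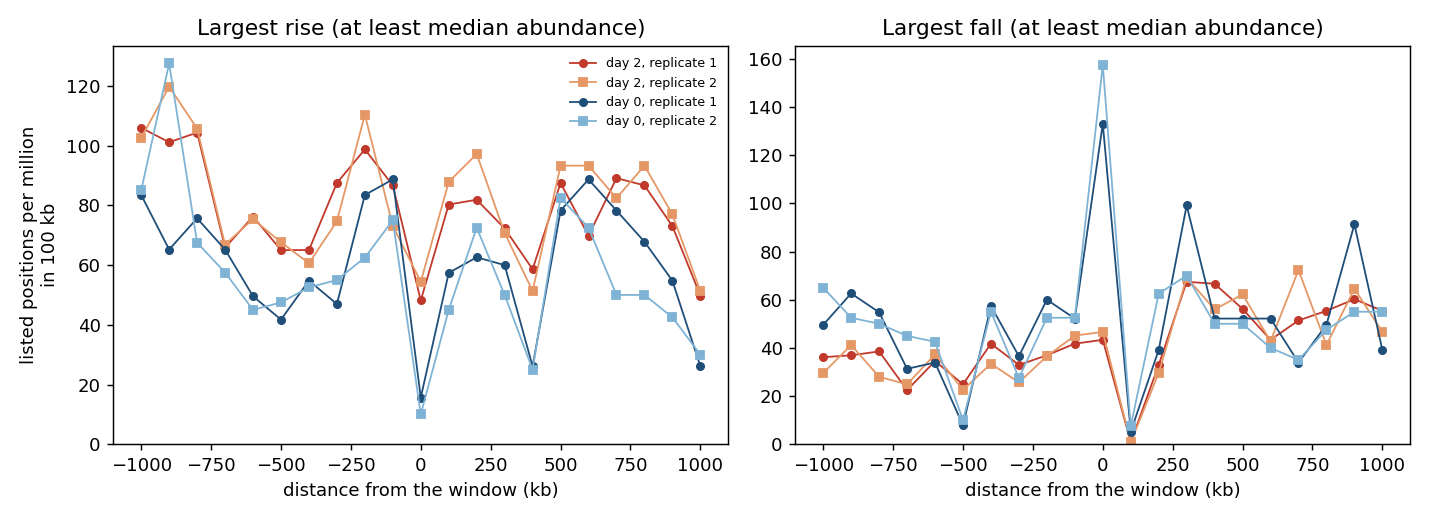
Normalised counts of listed positions in 100 kb windows around the largest rise and the largest fall among windows of at least median abundance, against distance from that window in kb; each line is 1 library of day 2 or day 0. At the centre of the rise the day 2 libraries sit at 48.2 and 54.4 and the day 0 libraries at 15.7 and 10.003, and at the centre of the fall at 43.4 and 46.7 on day 2, against 133 and 158 on day 0.

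The split by density was only partly alike in windows. They were ranked by their positions in the triplicate and cut into 5 bins of like size, and the bin with the fewest positions held 6.36% and 6.13% of day 2 positions, against 5.61% and 5.66% of day 0 positions, a ratio of 1.11, and the ratio of reads was 1.18. The bin second from the top held a smaller share on day 2, with a ratio of 0.968, and the libraries of the 2 days did not overlap in either bin (exact permutation p = 0.3333). The bin with the most positions was not lower on day 2: it held 37.9% and 38.4% on day 2, against 38.2% and 37.3% on day 0, with overlap between the days and a ratio of 1.01. Neighbouring windows changed together only weakly, with a correlation of log2 changes of 0.228 for adjacent windows and 0.110 for windows 5 apart, as a description.

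Reads were a less steady measure than positions. Over 29399 gene bodies, 212 rose and 53 fell in reads (0.721% and 0.18%, together 0.901% of those tested, with no overlap between the days in 42.0%). No gene was called in the fit of the 4 day 2 and day 0 libraries alone by edgeR, where 2353 had an unadjusted p under 0.05, whereas DESeq2 called 4708. Leaving out day 0 replicate 1 or day 0 replicate 2 gave 6991 and 6903 calls, and leaving out any other 1 library gave 0. Among windows 488 rose and 436 fell in reads, which is 2.05% and 1.83%, together 3.88%, of 23800, with no overlap between the days in 45.2%. Here the fits without the first and without the second day 0 library made 6908 and 6927 calls, and a fit lacking any other 1 library made 0 to 3. The genes above were named from positions. Of the 99 genes that rose in positions 40 were also called in reads, as were 40 of the 139 that fell.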

How the data were processed

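Each library reached GEO as a list of positions with their coverage. Per the file headers and the deposited values, coverage is the count of reads at that position, whole and not normalized. The submitters' processing notes name cutadapt (4.4), BWA (0.7.17-r1188), SAMtools (1.12) and mm10. Any duplicate filter is not given in the sources used here. No molecular identifiers are named in the labels, so each listed position was counted once, with reads beside it, and floors cover only the error of counting. An unlisted position was taken as 0.

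Counts were summed over 33069 RefSeq GRCm38.p6 gene bodies (38.6% overlap another, and a position counts for each, without strand) and over 100 kb windows of the 19 autosomes. The chromosomes of this assembly have the coordinates of mm10. edgeR 4.0.16 (R 4.3.3, filterByExpr, TMM, glmQLFTest, Benjamini-Hochberg at 0.05) was fitted over the 8 day libraries, with 4 day groups. Standard errors are the log2 change over the square root of F. DESeq2 1.42.0 and other settings were alternatives. Thinning kept 383292 positions per library. Totals and shares were compared by two-sided exact permutation (scipy 1.17.1). On simulated gene counts with 20016 genes the fit recovered 38% of 100 genes changed 2-fold and 79% of 100 changed 4-fold. The changed genes were drawn from those of at least median abundance, so sparser genes were not covered. The simulated spread came from the same fit.

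Named are the 8 largest called changes each way above median abundance, with at least 10 day 0 positions (for falls, over both days) and no overlap between days; up to 6 called genes with 0 positions on day 0; up to 3 called members of each list; and 16 preset genes. For windows it was 5 each way. The comparison, its members and the lists were chosen with earlier results of these data known. Replicate numbers were not used to pair libraries across days. Same-numbered day 2 and day 0 libraries deviated with a correlation of -0.01 over 1 Mb windows, which cannot decide whether they were paired.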

Additional observations from a re-analysis of the deposited data

Results flagged for a closer look

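The X and Y chromosomes lie outside the autosomal comparison, and both held listed positions. On the X chromosome 21653 and 21751 positions were listed on day 2, against 6827 and 7181 on day 0, while the control libraries listed 123 and 65. As a share of autosomal and X positions this was 1.71% and 1.66% on day 2, against 1.75% and 1.76% on day 0, and 1.34% and 1.86% in the control, so the shares were not above the control's. On the Y chromosome 59 and 58 positions were listed on day 2, against 39 and 50 on day 0, and 0 and 0 in the control. The control libraries hold far fewer positions, so their lower counts do not show a lower share on Y. These are given as values of an established line, and no change was tested on them.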

How the results depend on the processing

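Counts of called features depended on the processing more than their directions did. For positions per gene body (238 calls), DESeq2 gave 114, thinning 91, merging positions under 50 bp apart 137 (an alternative added after seeing the data), and leaving out 1 library 32 to 231. For 100 kb windows (671 calls) the counts were 193, 109 and 434 under the same 3 settings and 147 to 683 without 1 library. For reads per gene body (265 calls) edgeR gave 0 in the 4 libraries alone, 510 without a filter, 409 at a mean of at least 10, 640 with coverage capped at 5 reads, and 0 to 6991 without 1 library; DESeq2 gave 4708. For reads per window (924 calls) edgeR gave 1 in the 4 libraries alone, 1916 with capped coverage and 0 to 6927 without 1 library, and DESeq2 gave 4245. A replicate block gave 229 and 647 calls for positions per gene and window, and 0 and 326 for reads. Whether the shared numbers pair the libraries is not known. Over the 33 named called genes, 576 alternatives kept the direction, 452 with the call and 124 without. Over the 10 named windows 171 of 180 kept the call and 0 reversed. Day 2 to day 0 positions ranged between 3.16 and 3.30-fold without 1 library, and reads between 1.94 and 2.25. Signs turned in these uncalled values: the day 2 minus day 0 share of lncRNA bodies was 0.0123 points after thinning, that of bodies of 300 kb to 1 Mb was -0.0384 in reads, and the log2 change of Dnmt1 was -0.0591 with merged positions. Without 1 library, log2 changes ranged between -0.24 and 0.20 for Dnmt3b, -1.41 and 0.21 for Dnmt3l, -0.25 and 0.0327 for Tet1, and -0.99 and 0.15 for Fgf5. Without day 2 replicate 2 the value was 0.12 for Dnmt3b and 0.14 for Fgf5. Window correlations between day 2 libraries were 0.864 after thinning and 0.933 in reads, and 0.832 between day 0 libraries in reads; shared positions with at least 2 reads were 2.67% on day 2 and 4.49% on day 0. The cause of these shifts was not tested.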
